A study of Mus musculus with 16 samples.

Results

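The 10 genes described here encode the scaffold protein Ahnak, the intermediate filament protein vimentin (Vim), the S100 proteins S100a4, S100a6, S100a10 and S100a11, the annexins Anxa1 and Anxa2, and the galectins Lgals1 and Lgals3. They were taken by symbol from a table of 24394 named mouse genes, because they code for cytoskeletal and membrane proteins that are abundant in effector T cells. All 10 had a row, and all 10 were among the 14862 genes that passed the filter on low counts. The RNA was that of CD8+ T cells sorted by flow cytometry out of mouse marrow in bone marrow failure (BMF), a disease in which T cells destroy the blood-forming cells. The BMF groups had no drug, and the BAR groups had received baricitinib, a small molecule that blocks the kinases JAK1 and JAK2. Every group carried the disease, so no healthy marrow is among the controls. Libraries were made at day 10 after induction from 5 BMF and 5 BAR samples and at day 14 from 3 BMF and 3 BAR samples, 16 in all. The series calls its samples pooled cells, and whether each library stands for its own animal is not stated. Replicate numbers name the libraries of a group in their order of deposit and pair none of them across groups. The p-values then measure no more than how these libraries spread, which may be technical. The sources used here do not name the strain, the age, the drug dose or the way failure was induced.

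Most of these proteins act at the inner face of the plasma membrane. Annexins bind acidic phospholipids when calcium rises, and S100 proteins are small calcium-binding partners that dock onto annexins and onto the cytoskeleton. S100a10 binds Anxa2 in a complex that recruits the very large protein Ahnak. Vimentin gives the cell mechanical strength, and galectins, which can be secreted, bind sugars on surface glycoproteins. In CD8 T cells, several of these genes are known to be switched on when naive cells become effector or memory cells, and some of them, above all Anxa1 and Lgals3, are also strongly expressed by myeloid cells.

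Levels are in CPM, the count of a gene relative to the library total after TMM correction for composition, and are given as mean ± SD over libraries. Library totals ran from 26134900 to 58823100 counts, and the 10 genes held between 3235 and 156047 counts in a library. A difference was called when its p from edgeR's quasi-likelihood test, with Benjamini-Hochberg adjustment over the 14862 genes, was below 0.05. For the drug, words such as fall and rise set BAR against BMF at the same day and name no change over time. The cell type label was checked against marker genes. The sum of 10 CD8 T cell markers lay between 5815 and 10493 CPM in every library, and Cd4 lay between 0.519 and 5.92 CPM. At day 10 Cd4 was at 0.519 to 1.22 CPM in BMF and at 1.90 to 5.92 CPM in BAR. The sum of 6 markers of CD4 and regulatory T cells, mostly Ikzf2 and Ctla4, lay between 116 and 256 CPM. At day 10 this sum was 223 ± 32.6 CPM in BMF and 161 ± 16.2 CPM in BAR (exact two-sided permutation p = 0.0159, adjusted 0.0529). Of the 6 genes, 1 was called higher and 2 lower with the drug at that day. RNA of other marrow cells was also present. The sum of 17 markers of neutrophils and their precursors lay between 2659 and 9967 CPM in BMF and between 4774 and 13767 CPM in BAR at day 10. At day 14 it was 2878, 16392 and 23015 CPM in BMF and 48124, 52512 and 40092 CPM in BAR. A further feature was Rn45s, the precursor of ribosomal RNA, whose share of counts at day 10 was higher in BMF (4.0 ± 2.0%) than in BAR (1.3 ± 0.10%; exact permutation test, two-sided, p = 0.0476). Its day 14 shares, 2.20 ± 0.442% without and 1.46 ± 0.845% with the drug, gave an exact p of 0.2, where 0.1 is the smallest that 3 against 3 libraries allow. In bulk samples such as these, fewer cells of a type and less RNA per cell cannot be told apart.

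**Figure D1:**
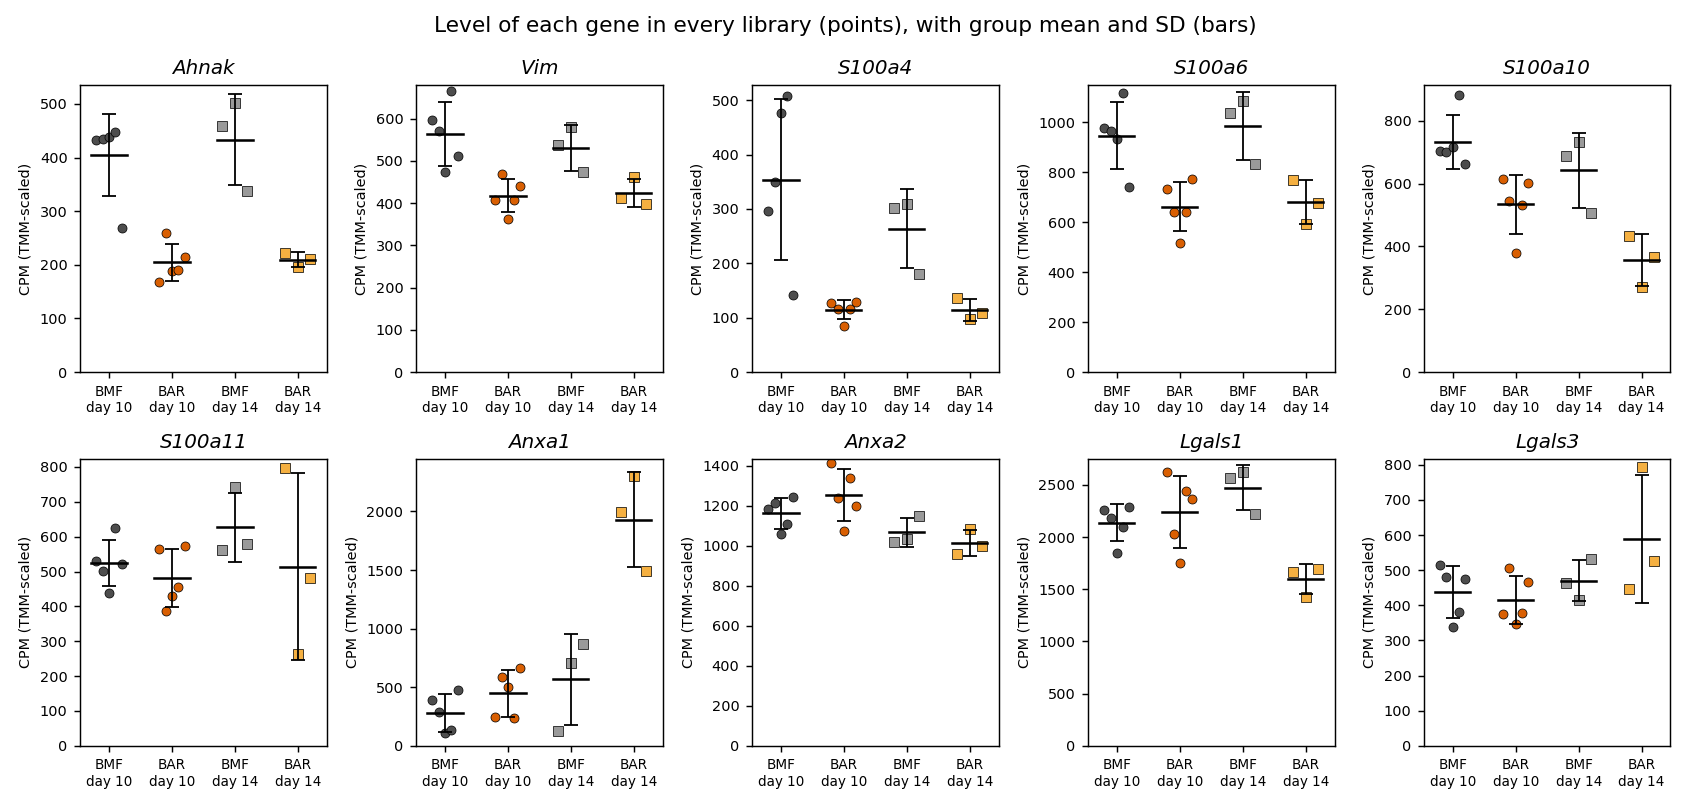
Level in CPM (vertical axes, linear and starting at 0) of each of the 10 genes in every library (points), with the group mean and SD (bars), in BMF and BAR at day 10 (5 libraries each) and day 14 (3 libraries each). Ahnak lay between 168.5 and 259.2 CPM in the 8 BAR libraries and between 269.4 and 501.6 CPM in the 8 BMF libraries, and Anxa1 reached 1494 to 2303 CPM in BAR at day 14.

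In the build mm10 (GENCODE vM21), the 4 S100 genes lie on the plus strand of chromosome 3 in 2 close pairs. S100a4 spans chr3:90603771-90606045, and S100a6 follows 6836 bases downstream at chr3:90612882-90624181. S100a11, at chr3:93520488-93526287, and S100a10, at chr3:93555080-93564643, are 28792 bases apart, and 2896306 bases separate S100a6 from S100a11. Ahnak (chr19:8989284-9076914, plus strand) and Anxa1 (chr19:20373428-20390944, minus strand) share chromosome 19. Anxa2 is at chr9:69453620-69491795, Lgals1 at chr15:78926725-78930465, Lgals3 at chr14:47367751-47386160 and Vim at chr2:13573927-13582826, all on the plus strand. S100a4 overlaps the predicted gene Gm42674 on the same strand, Anxa1 overlaps 1500015L24Rik on the opposite strand, and Anxa2 overlaps Mir3109 and Gm16144. Whether the counts used strand is not given, so reads of these partners cannot be told apart from those of the 3 genes.

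The 250 bases before the annotated start were read for 8 of the 10 genes from RefSeq (GRCm38.p6, the mm10 assembly family). Shown are the 4 of them that were lower with the drug at day 10, and Anxa1, whose mean was higher with the drug at both days without passing the test. Each is written 5′ to 3′ on the strand of its gene, and capitals mark the motif matches named after them. RefSeq and GENCODE place some of these starts differently. The RefSeq start lies 384 bases downstream of the GENCODE start for Vim, 273 for Anxa1 and 12 for S100a6, so the windows of Vim and Anxa1 lie inside the gene spans given above. Among the windows searched but not shown, that of Lgals3 also lies inside its gene, with a start 6109 bases downstream. The start of Anxa2 lies 63 bases downstream. S100a10 and Lgals1 had no window.
Ahnak: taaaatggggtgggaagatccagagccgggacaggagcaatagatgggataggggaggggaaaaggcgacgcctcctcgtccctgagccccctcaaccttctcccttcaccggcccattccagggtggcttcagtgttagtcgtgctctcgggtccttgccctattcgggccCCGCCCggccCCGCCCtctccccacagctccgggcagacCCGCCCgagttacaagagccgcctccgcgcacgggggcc
Vim: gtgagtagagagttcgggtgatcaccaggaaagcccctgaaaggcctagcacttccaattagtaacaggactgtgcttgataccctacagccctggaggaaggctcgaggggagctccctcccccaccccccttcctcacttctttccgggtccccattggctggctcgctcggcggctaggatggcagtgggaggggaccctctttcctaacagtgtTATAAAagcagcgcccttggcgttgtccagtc
S100a4: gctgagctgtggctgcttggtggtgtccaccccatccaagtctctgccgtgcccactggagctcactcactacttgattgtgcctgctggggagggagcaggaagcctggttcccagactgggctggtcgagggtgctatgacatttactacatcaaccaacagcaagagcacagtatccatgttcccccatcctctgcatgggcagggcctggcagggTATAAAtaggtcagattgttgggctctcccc
S100a6: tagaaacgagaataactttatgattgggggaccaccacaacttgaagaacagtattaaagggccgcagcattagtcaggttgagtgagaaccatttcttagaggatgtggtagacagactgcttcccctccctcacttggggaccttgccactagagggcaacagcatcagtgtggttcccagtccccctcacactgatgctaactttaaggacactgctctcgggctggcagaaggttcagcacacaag
Anxa1: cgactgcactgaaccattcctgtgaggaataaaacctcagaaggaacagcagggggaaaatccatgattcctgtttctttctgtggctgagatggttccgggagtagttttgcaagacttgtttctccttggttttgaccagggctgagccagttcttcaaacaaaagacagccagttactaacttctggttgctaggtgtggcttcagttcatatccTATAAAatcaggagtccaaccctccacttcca

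These windows lie at chr19:8989034-8989283 (Ahnak), chr2:13574061-13574310 (Vim), chr3:90603520-90603769 (S100a4), chr3:90612644-90612893 (S100a6) and chr19:20390672-20390921 (Anxa1, minus strand). Both strands were searched for 4 motifs, and no 2 matches overlapped. The TATA box TATAAA starts at base -31 of S100a4 and at base -32 of Anxa1 and of Vim, where -1 is the base before the start, and 12.4% of 32851 mouse windows of this length hold it. Ahnak holds 3 copies of the GC box GGGCGG, all on the minus strand, at bases -78, -68 and -39, a motif found in 32.7% of windows. Of the windows not shown, those of S100a11 and Anxa2 also hold 3 GC boxes each and that of Lgals3 holds 1. TATAAA is also in the window of Anxa2, at base -17. S100a6 held no match. TTCNNNGAA, the palindrome that STAT factors bind, was in none of the 8 windows, against 7.02% of all windows. TGANTCA, the AP-1 motif, was in 6.75% of all windows and in those of S100a11 (2 matches) and Anxa2 (1 match). A match is a stretch of letters and not a measured binding site, and no match says only that these letters are not in this window.

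At day 10, 5 of the 10 genes were lower with baricitinib by edgeR and none was higher, by edgeR, DESeq2, limma voom or at an unadjusted p under 0.05. Ahnak, S100a4, S100a6, S100a10 and Vim fell, and S100a11, Anxa1, Anxa2, Lgals1 and Lgals3 did not pass the test. Over all genes tested, 14.4% were called in this comparison, 6.49% higher and 7.94% lower. The median log2 fold change of the 10 genes was -0.28, and that of all genes 0.00. At day 14 again 5 were lower and none higher by edgeR or limma voom. The 5 were Ahnak, S100a4, S100a6, S100a10 and, in place of Vim, Lgals1. Anxa1 was higher by DESeq2, and it had an unadjusted edgeR p under 0.05. The share of all genes called at day 14 was 25.2%, with 12.9% higher and 12.2% lower, and the medians were -0.43 for the 10 genes and -0.01 for all. The members were chosen with earlier results of these data known, so these counts describe them and are no independent evidence of a direction.

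Ahnak, the giant scaffold of the membrane skeleton, was at 432.6, 435.3, 438.7, 447.9 and 269.4 CPM in the BMF libraries of day 10. In BAR it was at 168.5, 259.2, 188.8, 190.6 and 215.0 CPM. Every BAR library lay below every BMF library, although BMF replicate 5 came within about 10 CPM of the highest BAR value. The means were 405 ± 75.9 and 204 ± 34.8 CPM (n = 5 per group), a log2 fold change of -0.99 (SE 0.146, edgeR adjusted p = 0.000667). At day 14 Ahnak was at 459.8, 501.6 and 338.1 CPM in BMF and at 222.9, 195.6 and 210.9 CPM in BAR. The groups did not overlap there either, and the drop was of the same order (433 ± 84.9 against 210 ± 13.7 CPM, n = 3 each; log2 -1.05, SE 0.188, edgeR adjusted p = 0.000973). The difference between the 2 drug effects was -0.06 on the log2 scale, with a 95% confidence interval from -0.56 to 0.44.

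Vim, the intermediate filament of mobile and activated cells, was at 597.7, 571.5, 472.5, 664.8 and 512.1 CPM in BMF at day 10. Its BAR values were 408.0, 470.0, 363.1, 408.5 and 440.5 CPM. The groups were apart by a small margin, since the lowest BMF library stood just above the highest BAR library. The fall from 564 ± 74.9 to 418 ± 40.0 CPM (n = 5 each) was a log2 fold change of -0.43 (SE 0.0949, edgeR adjusted p = 0.00779). At day 14 Vim was at 538.6, 580.7 and 473.0 CPM in BMF and at 411.1, 462.4 and 398.8 CPM in BAR. Again no libraries overlapped, but this difference missed the threshold (log2 -0.32, 95% confidence interval from -0.58 to -0.07, edgeR adjusted p = 0.0602). It passed without BMF replicate 3 of day 14 (adjusted p = 0.0410) or without BMF replicate 3 or 4 of day 10 (adjusted p = 0.0443 and 0.0445).

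S100a4, a partner of non-muscle myosin linked to cell migration, had the largest estimated fall of the 10 genes at both days. At day 10 it was at 296.3, 349.1, 476.4, 507.1 and 141.1 CPM in BMF. In BAR it was at 126.5, 115.5, 85.6, 115.7 and 129.5 CPM. The BMF libraries were widely spread, and replicate 5 was again nearest to the BAR range, which no BMF library entered. The means of 354 ± 148 and 115 ± 17.4 CPM (n = 5 each) gave a log2 fold change of -1.63 (SE 0.293, edgeR adjusted p = 0.00465). At day 14 S100a4 was at 302.2, 308.6 and 180.8 CPM in BMF and at 135.9, 97.3 and 108.6 CPM in BAR. The groups did not overlap (264 ± 72.0 against 114 ± 19.9 CPM, n = 3 each; log2 -1.21, SE 0.374, edgeR adjusted p = 0.0317).

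S100a6, which binds annexins and lies near S100a4 in the genome, ranged from 740.8 to 1118 CPM with a median of 965.4 in BMF at day 10. In BAR it ranged from 518.7 to 773.5 CPM with a median of 643.2. BMF replicate 5 alone lay inside the BAR range, and the estimated fall was smaller than that of S100a4 (947 ± 135 to 662 ± 98.5 CPM; log2 -0.52, SE 0.120, edgeR adjusted p = 0.0103). Its day 14 values were 1039, 1085 and 832.8 CPM in BMF and 768.4, 594.3 and 679.0 CPM in BAR. Here the groups did not overlap (log2 -0.53, SE 0.154, edgeR adjusted p = 0.0172). S100a10, the partner of Anxa2, had values of 702.7, 700.1, 717.3, 884.1 and 662.3 CPM in BMF at day 10. In BAR they were 615.2, 544.6, 378.6, 533.0 and 603.3 CPM. The groups did not overlap, but the adjusted p lay close to the threshold (733 ± 86.7 against 535 ± 94.4 CPM; log2 -0.46, SE 0.146, edgeR adjusted p = 0.0456). By limma voom S100a10 was not called at day 10 (adjusted p = 0.0505), and its call was lost in 16 of 26 alternatives. At day 14 S100a10 was at 687.6, 733.9 and 507.0 CPM in BMF and at 434.2, 270.6 and 365.0 CPM in BAR. The estimated fall was larger there (643 ± 120 against 357 ± 82.1 CPM, n = 3 each; log2 -0.85, SE 0.189, edgeR adjusted p = 0.00400), although the difference between the drug effects at the 2 days was not called (log2 -0.40, SE 0.237, edgeR adjusted p = 0.313).

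S100a11, a partner of Anxa1 known for membrane repair, was not called with the drug at either day. At day 10 it ranged from 439.7 to 624.1 CPM in BMF and from 387.2 to 572.2 CPM in BAR (log2 -0.12, 95% confidence interval from -0.61 to 0.36, edgeR adjusted p = 0.754). At day 14 it was at 560.8, 741.7 and 579.0 CPM in BMF and at 796.3, 262.1 and 482.7 CPM in BAR. The 3 BAR libraries lay both above and below all BMF libraries, a spread that no other of the 10 genes showed at that day. The day 14 interval ran from -0.91 to 0.34, which does not exclude a fall as deep as that of S100a6 or S100a10. Single libraries decided the day 14 value. Without BAR replicate 1 it was called lower (log2 -0.74, edgeR adjusted p = 0.0355), and without BAR replicate 2 it was at log2 0.031 (adjusted p = 0.981).

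Anxa1, a phospholipid-binding protein that curbs inflammation and is abundant in neutrophils, was higher in mean with the drug at both days but was not called at either. At day 10 it was at 392.3, 284.3, 104.9, 136.2 and 477.6 CPM in BMF and at 242.1, 588.3, 501.7, 238.1 and 660.7 CPM in BAR. These ranges overlapped widely, and the difference was not called (log2 0.68, SE 0.540, edgeR adjusted p = 0.433). At day 14 it was at 128.5, 709.9 and 864.7 CPM in BMF and at 1993, 2303 and 1494 CPM in BAR. All BAR libraries lay above all BMF libraries, but the spread within BMF was wide and the difference missed the threshold (568 ± 388 against 1930 ± 408 CPM; log2 1.77, 95% confidence interval from 0.22 to 3.31, edgeR adjusted p = 0.0890). DESeq2 called it (log2 1.79, adjusted p = 0.0135). With the neutrophil marker sum as a covariate the log2 fold change was -0.06, and with the monocyte marker sum it was -1.02 (edgeR adjusted p = 0.853 and 0.0595).

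The library order of Anxa1 was close to that of the neutrophil marker sum. The BMF day 14 library with 128.5 CPM of Anxa1 had the lowest neutrophil sum of its group, 2878 CPM, and those with 709.9 and 864.7 CPM had 16392 and 23015 CPM. Ltf, the lactoferrin of neutrophil granules, was the gene of 8452 candidates whose centred log2 CPM over the 16 libraries lay nearest to that of Anxa1, at a root mean square distance of 0.141. Anxa1 itself varied with an SD of 1.36 on that scale. Ltf was not called with the drug at day 14 either (log2 1.75, SE 0.683, edgeR adjusted p = 0.0794). Of the 17 neutrophil markers tested, none was called at either day with the drug by edgeR, and 3 (day 10) and 7 (day 14) were higher at an unadjusted p under 0.05. Beyond the covariate fits, their part in the level of Anxa1 was not tested.

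**Figure D2:**
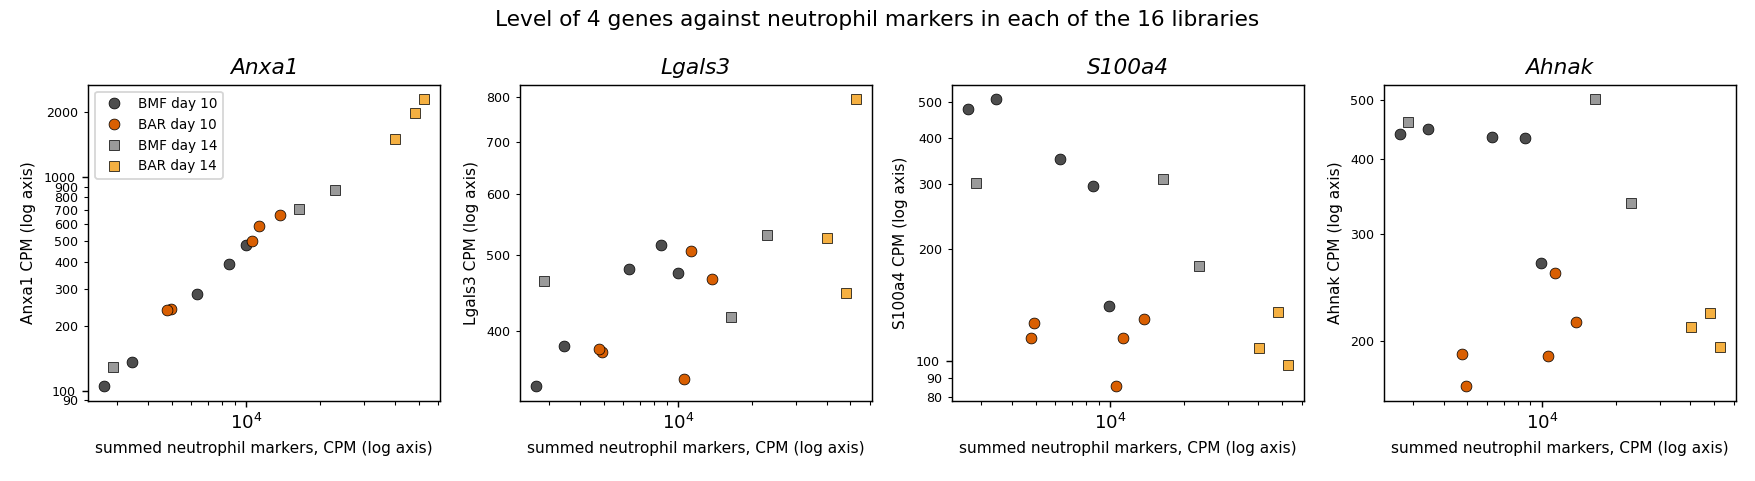
Level of Anxa1, Lgals3, S100a4 and Ahnak in CPM (vertical log axes) against the summed CPM of 17 neutrophil markers (horizontal log axes) in each of the 16 libraries, with 1 point per library and the groups by colour and shape. Anxa1 was at 104.9 CPM in the library with the lowest marker sum, of BMF, and at 2303 CPM in the one with the highest, of BAR. Ahnak was at 438.7 and 195.6 CPM in these libraries and between 168.5 and 259.2 CPM over BAR. In BMF at each day its lowest value, 269.4 and 338.1 CPM, was in the library with the highest sum. In BAR this was so at day 14 and not at day 10.

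Anxa2, which bundles actin at the membrane together with S100a10, was not called with the drug at either day. At day 10 its means were 1162 ± 76.7 (BMF) and 1253 ± 130 CPM (BAR), and they were 1067 ± 71.9 and 1014 ± 63.6 CPM at day 14. The 95% confidence intervals of its log2 fold change were narrow, from -0.06 to 0.28 at day 10 and from -0.29 to 0.14 at day 14 (edgeR adjusted p = 0.383 and 0.645). Both intervals exclude the estimated falls of S100a10. That the 2 partners responded differently to the drug was not tested.

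Lgals1, galectin-1, which activated T cells make and secrete, behaved differently at the 2 days. At day 10 it was at 2263, 2185, 1847, 2100 and 2284 CPM in BMF and at 2622, 2032, 1752, 2441 and 2363 CPM in BAR. The groups lay over each other (log2 0.07, 95% confidence interval from -0.15 to 0.29, edgeR adjusted p = 0.682). At day 14 it was at 2565, 2626 and 2224 CPM in BMF and at 1660, 1430 and 1696 CPM in BAR. No library overlapped, and the fall from 2472 ± 216 to 1595 ± 144 CPM was called (log2 -0.63, SE 0.133, edgeR adjusted p = 0.00244). The difference between the drug effects at the 2 days was itself past the threshold (log2 -0.70, SE 0.168, edgeR adjusted p = 0.0147). It was the only one of the 10 genes for which this was so. Over all genes 10.3% had a called difference between the drug effects, and for 5.33% it was negative. The adjusted p rose above the threshold without BMF replicate 2 of day 14 (0.0524), without the 3 BMF libraries of day 10 richest in Rn45s and with the monocyte covariate (0.0987 in both), at differences of -0.66, -0.66 and -0.59 that were close to the -0.70 above.

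Lgals3, the galectin of macrophages and other myeloid cells, was not called with the drug. Its day 10 means were 438 ± 74.2 CPM without and 415 ± 68.6 CPM with the drug (log2 -0.08, SE 0.157, edgeR adjusted p = 0.769). At day 14 it was at 463.9, 416.2 and 531.1 CPM in BMF and at 447.7, 794.8 and 527.2 CPM in BAR. One BAR library, replicate 2, stood high, and it was also the library with the highest sums of neutrophil markers (52512 CPM) and of monocyte and macrophage markers (4652 CPM). The interval of the log2 fold change ran from -0.10 to 0.76 (edgeR adjusted p = 0.259).

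**Figure D3:**
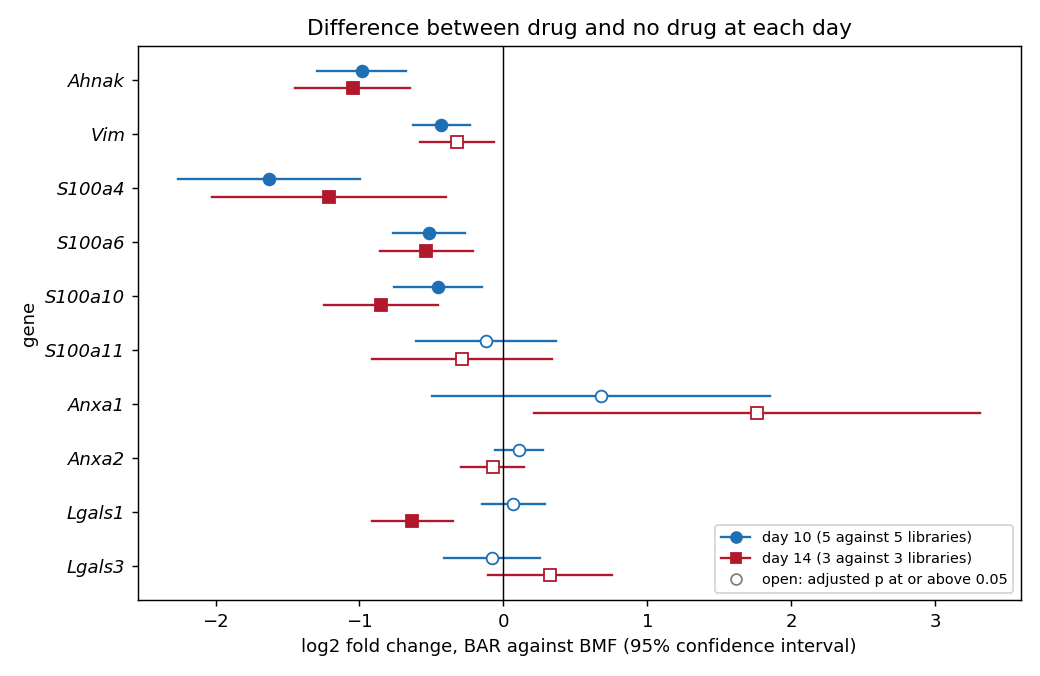
Log2 fold change of BAR against BMF (horizontal axis) with its 95% confidence interval for each of the 10 genes at day 10 (circles, 5 against 5 libraries) and day 14 (squares, 3 against 3), filled where the edgeR adjusted p was below 0.05. Ahnak at -0.99 and -1.05, S100a4 at -1.63 and -1.21, S100a6 at -0.52 and -0.53 and S100a10 at -0.46 and -0.85 were lower at both days, and Lgals1 at day 14 alone.

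The arms also differed at day 10 in the Rn45s share, which the 5 BMF libraries held at 5.52%, 4.81%, 5.79%, 2.72% and 1.14%. The gene Lars2 held 3.57%, 3.49%, 5.71%, 2.53% and 0.846% of counts in the same BMF libraries. In BAR at day 10 it held 0.637% to 0.847%, a difference that was not tested. BMF replicate 5, with the lowest share of both, was the library in which Ahnak, S100a4, S100a6 and S100a10 were nearest to BAR or inside its range. The order within BMF did not follow either share throughout. Replicate 4, with the next lowest share of both, had the highest BMF value of all 5 called genes. Vim was lowest in replicate 3, with the highest share of both. With log2 Rn45s as a covariate none of the 5 calls of day 10 was kept. The log2 fold changes then were -0.60 for Ahnak (edgeR adjusted p = 0.129), -0.87 for S100a4 (0.392), -0.26 for S100a6 (0.639), -0.26 for S100a10 (0.766) and -0.45 for Vim (0.202). Without the 3 BMF libraries richest in Rn45s, which left 2 against 5, the calls were lost as well, at log2 -0.82, -1.51, -0.50, -0.54 and -0.50 in the same order. All of these differences kept their sign. Of all genes, 30 were called higher and 36 lower with the covariate, and 52 and 59 without the 3 libraries, beside 965 and 1180 in the fit without either step. Markers of other cells also moved at day 10. B cell markers were called higher with the drug for 8 of 10 genes, and their sum lay between 13.7 and 25.3 CPM in BMF and between 32.6 and 355.7 CPM in BAR. Of 6 erythroid genes tested 5 were higher, and of 15 monocyte and macrophage genes 6 were higher and 1 lower. Beyond the fits given here, the part of these markers in the day 10 falls was not tested.

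At day 14 the arms also differed in markers of marrow cells other than T cells. The summed markers of monocytes and macrophages were 501.3, 1137 and 1678 CPM in BMF and 4049, 4652 and 3846 CPM in BAR. The gene Lyz2, the lysozyme that neutrophils express as well, made up much of that sum, at 193.0, 832.4 and 1380 CPM in BMF and 3463, 4090 and 3279 CPM in BAR. The other 14 genes summed to 308.3, 304.8 and 297.9 CPM in BMF and to 585.9, 562.1 and 566.9 CPM in BAR. The erythroid markers lay between 12.1 and 21.6 CPM in BMF and between 557.6 and 1090 CPM in BAR. The CD8 T cell sum was 9742 ± 876 CPM in BMF and 7333 ± 341 CPM in BAR (exact two-sided permutation p = 0.100, the smallest that 3 against 3 allow), with a mean log2 difference of -0.43 over the list, and 7 of its 10 genes were called lower. With the neutrophil sum as a covariate Ahnak was still called at day 14, and S100a4, S100a6, S100a10 and Lgals1 were not (edgeR adjusted p = 0.472, 0.285, 0.115 and 0.0538). Their log2 fold changes in that fit were -0.59, -0.37, -0.64 and -0.57, beside -1.21, -0.53, -0.85 and -0.63 without the covariate. With the monocyte sum none of the 5 calls was kept, at log2 -0.82 for Ahnak, -0.10 for S100a4, -0.20 for S100a6, -0.44 for S100a10 and -0.49 for Lgals1. Of the markers themselves, 6 of 15 monocyte and macrophage genes were called higher and 4 lower at day 14, and 6 of 6 erythroid genes tested, 8 of 9 mast cell, basophil and eosinophil genes and 6 of 9 stem, progenitor and megakaryocyte genes were higher. As the neutrophil, monocyte and erythroid sums of the arms did not overlap at day 14, the drug and the make-up of the sorted cells cannot be told apart there.

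Leaving out any 1 of the 16 libraries kept the day 10 calls of Ahnak, S100a4, S100a6 and Vim, and that of S100a10 was lost in 10 of these 16 fits, whose adjusted p reached 0.118 without BMF replicate 4. At day 14 the S100a4 call was lost without BMF replicate 1 or 2 or BAR replicate 2 or 3 of that day (adjusted p from 0.0895 to 0.125). S100a6 was lost without BMF replicate 1 or 2 or BAR replicate 2 (adjusted p from 0.0630 to 0.0927). The count of members called lower at day 14 ran from 3 to 6. Without overlap between the arms, 4 genes were lower and none higher at day 10, where 4.11% and 3.80% of all genes were. At day 14, 6 were lower and 1 was higher, against 21.5% and 21.8% of all genes.

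None of the 10 genes was called between the days in the absence of drug, by edgeR, DESeq2 or limma voom, and none had an unadjusted p under 0.05. Without BMF replicate 5 of day 10, S100a4 was called lower at day 14 (log2 -0.64, edgeR adjusted p = 0.0355). Between day 10 and day 14 in BMF the log2 changes ran from -0.42 (S100a4) to 1.02 (Anxa1), with edgeR adjusted p from 0.166 to 0.763, and all 10 ranges overlapped, where 17.1% of all genes were higher and 19.6% lower without overlap. In the same comparison 38.5% of all genes were called, 17.6% higher and 20.9% lower. With the drug, 2 genes were higher at day 14 and 3 lower, against 39.1% of all genes (19.2% higher and 19.8% lower). Anxa1 was 4.33-fold higher (446 ± 196 to 1930 ± 408 CPM; log2 2.11, SE 0.609, edgeR adjusted p = 0.0165), and Lgals3 rose by log2 0.51 (SE 0.179, adjusted p = 0.0343). Anxa1 alone rose and Lgals1 alone fell with no overlap between the days, against 20.1% and 21.2% of all genes. Lgals1 fell by log2 0.49 (SE 0.121, adjusted p = 0.00445), S100a10 by 0.59 (SE 0.171, adjusted p = 0.0134) and Anxa2 by 0.31 (SE 0.0935, adjusted p = 0.0160). Without BAR replicate 2 of day 14 the calls of Anxa1, Lgals3 and S100a10 were lost (adjusted p = 0.0614, 0.337 and 0.0777), and Anxa2 was lost without BAR replicate 1 or 3 of day 14 (adjusted p = 0.0577 and 0.0643). Lgals3 was also lost without BAR replicate 1, 3 or 4 of day 10 (adjusted p = 0.0748, 0.0832 and 0.0807). With the neutrophil or the monocyte marker sum as a covariate none of the 5 calls was kept. In these fits Anxa1 was at log2 -0.30 and -0.91, Lgals3 at 0.17 and 0.025, S100a10 at -0.35 and -0.18, Lgals1 at -0.42 and -0.35 and Anxa2 at -0.36 and -0.34. The rises of Anxa1 and Lgals3 went along with the neutrophil markers, of which 13 of 17 tested were called higher and none lower between the days in BAR. The day and any harvest batch cannot be told apart, as the labels name no batch.

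Ordered by level per length (CPM per kilobase of the annotated transcript), Lgals1 was the most abundant of the 10 in BMF at day 10, at 2670 ± 221. S100a6 (1296 ± 185), S100a10 (1071 ± 127), S100a11 (1025 ± 130), Anxa2 (803 ± 53.0) and S100a4 (711 ± 296) followed. Lgals3 (309 ± 52.3), Vim (257 ± 34.1) and Anxa1 (167 ± 95.9) came next, and Ahnak, with its transcript of 18100 bases, was lowest at 22.4 ± 4.19. In that order S100a10 and S100a11, Anxa2 and S100a4, Lgals3 and Vim, and Vim and Anxa1 differed by less than the larger SD of the pair. In BAR at day 14 Lgals1 was still first (1994 ± 180), but Anxa1 was second (1153 ± 244) and S100a4 (229 ± 39.9) stood below Lgals3 (416 ± 128). Anxa1 differed there from S100a11 (1005 ± 525) and S100a6 (931 ± 119), which came next, by less than the larger SD of the pair. Lengths are those of 1 annotated transcript a gene, which may not be the one expressed.

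The relatives of the 10 genes did not share one direction. The shares of all genes called, against which the counts below can be read, were 6.49% higher and 7.94% lower at day 10 and 12.9% and 12.2% at day 14. None of the 7 genes tested of the S100 list, 6 S100 genes and the S100P-binding protein gene S100pbp, and none of 8 other annexins was called by edgeR at day 10, and 1 of the S100 genes and none of the annexins had an unadjusted p under 0.05. At day 14, 1 S100 gene was higher and S100pbp was lower, and 2 annexins were higher and 1 lower. S100a1, an S100 protein of muscle, rose from 12.6 to 33.5 CPM (log2 1.41, SE 0.272, edgeR adjusted p = 0.00189), and S100pbp fell (log2 -0.49, adjusted p = 0.0420). S100a8 and S100a9, the calprotectin subunits of neutrophils, were at log2 1.38 and 1.64 without being called (adjusted p = 0.161 and 0.0727). Anxa6 fell from 907 to 630 CPM (log2 -0.52, SE 0.105, adjusted p = 0.00169), Anxa7 rose slightly (log2 0.28, adjusted p = 0.0206), and Anxa3, an annexin of neutrophils, rose from 34.4 to 138 CPM (log2 2.0, adjusted p = 0.0487). The Anxa3 call was kept in 7 of 26 alternatives, and it was at log2 0.35 with the neutrophil and -0.56 with the monocyte covariate.

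The galectin list had 6 genes tested, 5 galectin or galectin-like genes and Lgals3bp, which codes for a secreted ligand of galectin-3. Of these 6, 3 were higher at day 10 and none lower. Lgals9, the interferon-inducible galectin-9, went from 145 to 249 CPM (log2 0.78, SE 0.109, edgeR adjusted p = 0.000394) and was higher at day 14 as well (194 to 303 CPM; log2 0.65, SE 0.141, adjusted p = 0.00302). Lgals3bp was higher at day 10 (log2 0.50, adjusted p = 0.00514) and lower at day 14 (log2 -0.45, adjusted p = 0.0190), and this switch was itself called (difference -0.96, SE 0.169, adjusted p = 0.00226). Lgalsl was higher at day 10 alone (log2 0.37, adjusted p = 0.0208). The median over the 6 was 0.26 at day 10 and 0.02 at day 14.

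Among 9 intermediate filament and linker genes, 1 was higher at day 10, and 1 was higher and 2 lower at day 14. Lmna, the nuclear lamin A/C, was higher at both days from a low level (4.54 to 11.7 CPM and 2.62 to 32.0 CPM; log2 1.35 and 3.61, edgeR adjusted p = 0.0326 and 0.000447), and its day 10 call was lost in 11 of 26 alternatives. Plec, the linker plectin that ties vimentin to the membrane, fell at day 14 from 133 to 75.1 CPM (log2 -0.82, SE 0.125, adjusted p = 0.000212), as did Lmnb1 (log2 -0.83, adjusted p = 0.0145). From day 10 to day 14 the range of Plec went from 68.3-86.3 to 112.4-155.5 CPM in BMF. In BAR it went from 57.9-73.2 to 66.6-82.9 CPM. Of 12 genes of membrane repair and calpains, 2 were lower at day 10 and 4 lower and 1 higher at day 14. Capn2, a calcium-activated protease, fell from 156 to 99.5 CPM at day 14 (log2 -0.65, SE 0.102, adjusted p = 0.000276), and Pdcd6ip, the ESCRT adaptor ALIX, was lower at both days (log2 -0.25 and -0.44, adjusted p = 0.0235 and 0.00154). Capn1 (log2 -0.22, adjusted p = 0.0213, at day 10) and Esyt1 (log2 -0.46, adjusted p = 0.00218, at day 14) were also lower.

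Of 30 actin and cortex genes, 2 were lower and 1 higher at day 10, and 9 were lower and 2 higher at day 14. Actb, cytoplasmic actin, fell at day 10 (log2 -0.33, SE 0.101, edgeR adjusted p = 0.0349), as did the thymosin gene Tmsb10 (log2 -0.37, adjusted p = 0.00994), while Actn4 rose (log2 0.31, adjusted p = 0.0218). The Actb call was lost in 15 of 26 alternatives. At day 14 the largest of the falls named here were Crip1 (871 to 422 CPM; log2 -1.05, SE 0.207, adjusted p = 0.00198), a small LIM-domain protein, Myh9, the heavy chain of the myosin that S100a4 binds (1158 to 719 CPM; log2 -0.69, SE 0.138, adjusted p = 0.00172), and talin, Tln1 (657 to 415 CPM; log2 -0.66, SE 0.123, adjusted p = 0.000928). From day 10 to day 14 the range of Myh9 went from 456.8-607.2 to 872.3-1340 CPM in BMF and from 507.1-578.7 to 645.2-784.2 CPM in BAR. That of Tln1 went from 270.1-329.0 to 500.2-786.2 CPM in BMF and from 272.3-297.7 to 384.3-442.1 CPM in BAR. Crip1 went from 640.6-903.2 to 574.4-1071 CPM in BMF and from 617.9-808.3 to 324.5-528.0 CPM in BAR. Of 26 genes of effector membrane and adhesion, 5 were lower and 1 higher at day 10, and 11 lower and 4 higher at day 14. The membrane protein gene Emp1 fell at day 10 from 10.9 to 4.19 CPM (log2 -1.38, SE 0.198, edgeR adjusted p = 0.000460), and Itga1, the collagen-binding integrin chain of tissue-resident cells, from 13.1 to 5.49 CPM (log2 -1.26, SE 0.187, adjusted p = 0.000540). Cd44, the hyaluronan receptor, was lower at day 10 and higher at day 14 (log2 -0.45 and 0.51, adjusted p = 0.00537 and 0.00500). Selplg, the selectin ligand PSGL-1, and the integrin chain Itgal fell at day 14 (log2 -0.59 and -0.65, adjusted p = 0.000985 and 0.000739), and the tetraspanin Cd9 rose (log2 1.33, adjusted p = 0.000268). The medians of these 2 lists were 0.00 and -0.11 at day 10 and -0.19 and -0.40 at day 14, beside 0.00 and -0.01 for all genes. None of the 12 genes of these lists named as called at day 10 was kept with the Rn45s covariate, where all 12 fold changes kept their sign at 35.8% to 117% of their size on the log2 scale (median 78.7%). Lgals9 (log2 0.69) and Emp1 (log2 -1.12) were then at an adjusted p of 0.053. Without the 3 BMF libraries richest in Rn45s, 3 were kept, Lgals9, Itga1 and Emp1. Of 19 named as called at day 14, all but Cd44, 8 were kept with the neutrophil covariate and 4, Plec, Myh9, Tln1 and Selplg, with the monocyte covariate. The medians of the 19 fold changes were 87.1% and 78.3% of their size without a covariate, and of the 19 Anxa3 alone changed sign.

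**Figure D4:**
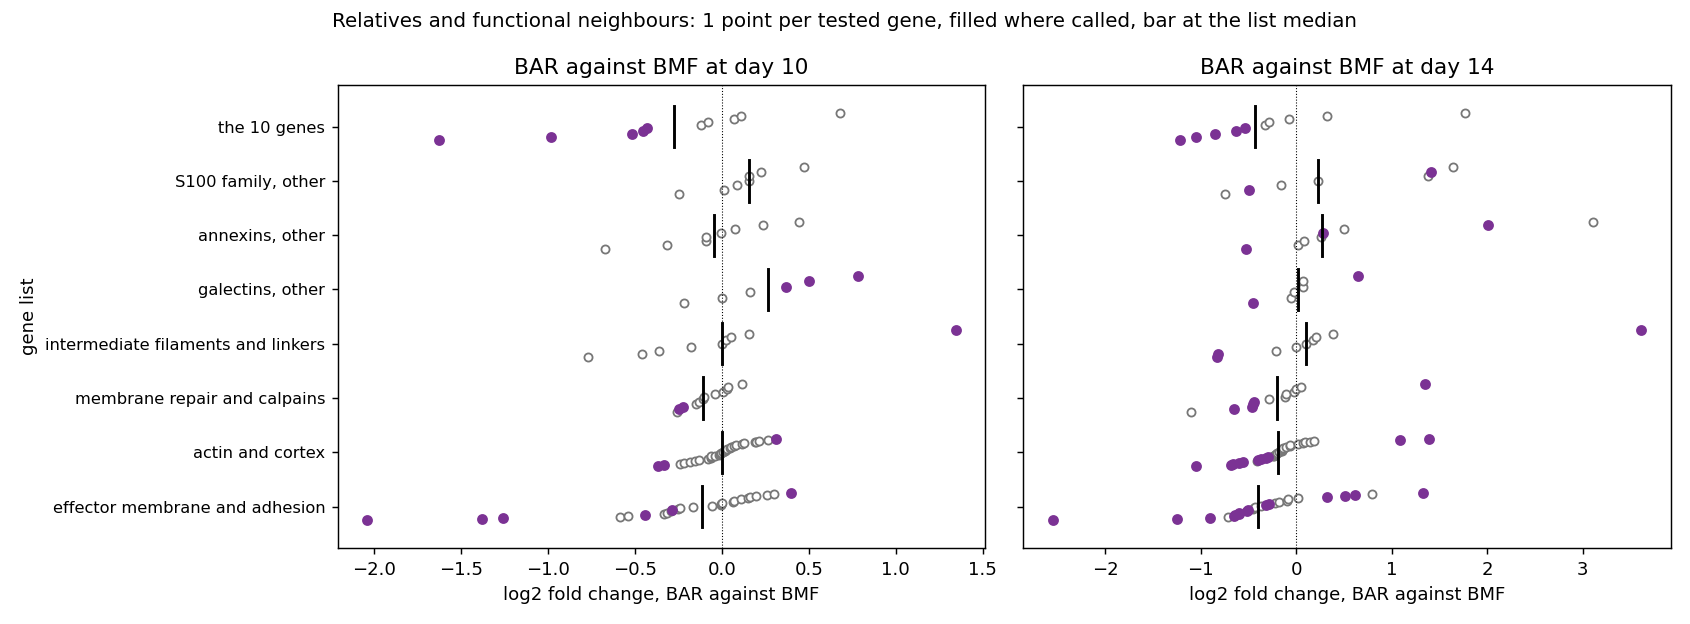
Log2 fold change of BAR against BMF (horizontal axis) for each tested gene of the 10 genes and of 7 lists of relatives and functional neighbours (rows), at day 10 and day 14, filled where called, with a bar at each list's median. The medians of the 10 genes are -0.28 and -0.43, and those of the galectin list, which holds Lgals3bp, 0.26 and 0.02.

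The 10 genes did not vary as one block over the 16 libraries. The most alike pair was S100a6 and Vim, whose centred log2 CPM differed by a root mean square of 0.178, and the least alike was S100a4 and Anxa1, at 1.95. Their summed CPM, in which Lgals1 had the highest mean in every group but BAR at day 14, where Anxa1 had, differed with the drug by -0.16 on the log2 scale at day 10 and by -0.12 at day 14. The mean of log2 CPM, in which each gene counts alike, differed by -0.32 and -0.26, and neither was tested. The nearest gene to Ahnak by profile was Kbtbd11 (distance 0.211), which was lower at both days (log2 -0.84 and -0.74, edgeR adjusted p = 0.000313 and 0.00163). That of S100a10 was Gimap8 (0.157), a GTPase of lymphocytes, and that of Lgals1 was Cd48, a ligand of the SLAM family. Cd48, like Lgals1, was lower at day 14 and not called at day 10 (log2 -0.60 and 0.00, adjusted p = 0.00281 and 0.986), with a called difference between the days (adjusted p = 0.0275). Kbtbd11 and Cd48 were picked for profiles close to those of Ahnak and Lgals1 in these same libraries. Like calls therefore follow from the choice and are no independent evidence. Vim lay nearest to Abracl, S100a6 to Uqcrh, S100a11 to Arpc3, Anxa2 to Mrpl27 and Lgals3 to Slc35d2. S100a4 lay nearest to Rps15a-ps6, a ribosomal protein pseudogene whose counts are uncertain because near-identical copies can share its reads. To the mean profile of the 10 the nearest genes were Epb4.1, Rusc1, Stk17b, Cir1 and Sys1, at 0.104 to 0.112.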

How the data were processed

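RNA was measured in 16 libraries of sorted marrow CD8+ T cells, made from polyA RNA with the SMART-Seq mRNA LP kit, per the labels' protocols. The authors deposited raw counts of reads per gene symbol, with no normalization. Alignment was with HISAT2 2.0.5 against mm10, per the submitters' processing notes. How reads were counted, on which annotation and whether by strand is not given in the sources used here. Of 24421 entries, 27 carried dates in place of symbols (0.234% to 0.293% of counts) and were left out. No library was treated as a copy of another: chi-square values per degree of freedom between libraries of a group were 11.2 to 347.

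Counts were analysed with edgeR 4.0.16 in R 4.3.3: filter by group (14862 genes), TMM, and 1 robust quasi-likelihood fit of the 4 group means to the 16 libraries. Its contrasts were drug against no drug per day, the difference of these 2 effects, and day 14 against day 10 per arm, each with an F-test. The standard error was the log2 fold change divided by the square root of F. Log2 CPM used a prior count of 2. The procedure was also run on simulated counts, and the outcome is not given here. Marker sums and Rn45s shares were compared by exact two-sided permutation tests. Alternatives were RLE size factors, no filter, DESeq2 1.42.0, limma 3.58.1 (voom), only the groups compared, single libraries left out, no 3 Rn45s-rich libraries, covariates (Rn45s, neutrophil or monocyte marker sum) and library sizes without Rn45s and Lars2.

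The members and lists were chosen with earlier results of these data known. Named besides the members are, for each list and drug comparison, up to 3 called genes with the smallest adjusted p and at least 10 CPM in a group; the 5 genes nearest to the members' mean profile; and the gene nearest to each member. S100a8 and S100a9 were named after their values were seen.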

Additional observations from a re-analysis of the deposited data

Results flagged for a closer look

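Among 42 sets of values looked at, 5 had a library far from the rest of its group, where chance alone gives about 1 in 20. Ahnak was at 269 CPM in BMF replicate 5 of day 10, and the other 4 lay between 432.6 and 447.9 CPM. S100a10 was at 884 CPM in BMF replicate 4 of that day, and the next was at 717.3 CPM. The erythroid marker sum was 141 CPM in BMF replicate 5 of day 10, with the next at 60.1 CPM. In BAR replicate 3 of day 10, the B cell marker sum was 356 CPM and the dendritic cell sum 443 CPM, with the next libraries at 73.4 and 242.9 CPM.

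The drug effect differed between the days, by edgeR's interaction test, for 18 of the genes named in the text. Besides the member Lgals1 and Cd48, named for its profile, these were named because a drug effect was called. That choice favours genes with a called difference, so the count cannot be read against the 10.3% of all genes that had one. Values are the day 14 effect minus the day 10 effect on the log2 scale. Negative were Lgals1 (-0.70), S100pbp (-0.71), Anxa6 (-0.43), Lgals3bp (-0.96), Plec (-0.64), Capn2 (-0.51), Esyt1 (-0.58), Actn4 (-0.46), Crip1 (-0.86), Myh9 (-0.69), Tln1 (-0.62), Selplg (-0.58) and Cd48 (-0.59). Positive were S100a1 (1.25), Anxa7 (0.38), Lmna (2.26), Cd44 (0.95) and Cd9 (1.39).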

How the results depend on the processing

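Between 25 and 26 alternatives were run per comparison, all planned. Limits come first. Cells were pooled and no batch is labelled; the arms differ in Rn45s at day 10 and in marker sums of other cells at day 14. No paired analysis was possible because the labels give no replicate numbers (those used here follow the order of deposit). For the interaction, only the groups compared is the same fit as the main one and has no value of its own. No cause of the shifts below was tested.

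With the neutrophil covariate the members called lower at day 14 were 1 and with the monocyte covariate 0, with 3 under the Rn45s covariate, against 5 in the main fit. The members called lower at day 10 were 0 both with the Rn45s covariate and without the 3 Rn45s-rich BMF libraries. DESeq2 called 1 member higher at day 14. The Lgals1 interaction, 1 member called lower, became 0 without those 3 libraries and with the monocyte covariate. Between days in BAR, 2 members were called higher in the main fit, 1 with no filter, 1 with only the groups compared, and 0 with either marker covariate, which also took the 3 called lower to 0.

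Counts over all genes moved as follows (higher, lower). At day 10 they were 52 and 59 without the 3 libraries, 30 and 36 with the Rn45s covariate, and 428 and 486 with the monocyte covariate. At day 14 they were 516 and 474 with the neutrophil and 182 and 127 with the monocyte covariate. For the interaction they were 243 and 170 without the 3 libraries, 470 and 433 with the neutrophil covariate, 379 and 317 with the monocyte covariate, and 1142 higher with DESeq2. Between days in BMF they were 1193 and 1266 without the 3 libraries. Between days in BAR they were 610 and 937 with the neutrophil and 290 and 651 with the monocyte covariate. The members' level by mean log2 CPM was -0.32 at day 10 and -0.26 at day 14, against -0.16 and -0.12 by summed CPM.

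Some log2 fold changes changed sign, and none was called with its changed sign. Anxa1 with the drug was -0.065 (day 14, neutrophil covariate), -0.13 (day 10, monocyte covariate) and -1.02 (day 14, monocyte covariate). Its interaction was -0.23 and -0.89, its change between days in BMF -0.069 and -0.013, and in BAR -0.30 and -0.91, with the neutrophil and monocyte covariates. Lgals3 was -0.17 at day 14 with the monocyte covariate, and between days in BMF -0.016, -0.00447 and -0.019 with the Rn45s, neutrophil and monocyte covariates. Anxa3 was -0.56 at day 14 with the monocyte covariate. S100a11 was 0.15 and Anxa2 -0.00238 at day 10 with the Rn45s covariate, and S100a11 between days in BAR was -0.027 with limma voom. S100a4 between days in BAR was 0.000127 with DESeq2, 0.69 with the neutrophil and 1.07 with the monocyte covariate. The interaction of S100a6 was 0.00318 with RLE, 0.00218 with DESeq2, 0.10 with the neutrophil and 0.22 with the monocyte covariate, and that of Ahnak 0.017 and 0.092 with those covariates.

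Leaving out 1 library at a time gave these lowest and highest values. Members called lower at day 14 ran from 3 to 6, for the interaction from 0 to 1, and between days in BMF from 0 to 1; members called higher between days in BAR ran from 0 to 2. All genes called higher and lower ran from 413 to 1856 and from 623 to 1759 at day 10 (lowest without BMF replicate 3, highest without BMF replicate 5), from 1109 to 2060 and from 971 to 1991 at day 14, from 332 to 954 and from 347 to 1071 for the interaction, and from 1885 to 2907 and from 1957 to 3254 between days in BAR. S100a11 ran from -0.74 to 0.031 at day 14, from -0.64 to 0.14 for the interaction and from -0.38 to 0.40 between days in BAR. The Ahnak interaction ran from -0.22 to 0.055 and that of S100a6 from -0.13 to 0.061. Between days in BMF, Ahnak ran from -0.029 to 0.24, S100a6 from -0.029 to 0.16 and Lgals3 from -0.000239 to 0.19. Between days in BAR, Ahnak ran from -0.026 to 0.14, S100a4 from -0.16 to 0.083, S100a6 from -0.063 to 0.12 and Vim from -0.057 to 0.067.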
